A study of Arabidopsis thaliana with 14 samples.

Results

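AT1G15405 is a gene of *Arabidopsis thaliana* that is annotated as a non-coding RNA of unknown function and was the parent gene of 33 circRNAs. They were chosen as the circRNAs for which the authors listed AT1G15405 as the parent gene, and they made up 33 of the 5861 circRNAs in the list of all samples and 33 of the 1217 circRNAs found in the mixed sample. All 33 were detected in the mixed sample. The gene itself was selected on its number of circRNAs in the mixed sample, which was the highest of all nuclear genes. That number, the reads behind it and the ends of the circRNAs are therefore described here and were not tested.

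A circRNA is a transcript whose ends are joined, so that it has neither a cap nor a poly(A) tail. It is seen in sequencing as a back-spliced read, in which a downstream end is followed by an upstream start. Many circRNAs arise when the spliceosome joins a downstream 5′ splice site to an upstream 3′ splice site, and the bases that flank them in the genome are then AG before the start and GT after the end. Several circRNAs can be made from the same gene when a splice site is joined to more than 1 partner.

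The plants were wild-type Columbia (Col-0). The mixed sample pooled equal RNA from whole plants at 7 growth stages, from seedlings to senescence. The 13 separate samples were whole plants at 4 of these stages, then roots, stems, leaves, flowers and siliques, and plants kept without stress or exposed to drought, salt or heat stress. Ribosomal RNA had been removed from all of them, linear RNA had been digested with ribonuclease R, and each condition had 1 strand-specific library. The lists give no values for each of the 13 separate samples. The values of the 33 circRNAs are therefore counts of back-spliced reads in the mixed library alone, which had 8987 such reads over its 1217 circRNAs. Exact Poisson and binomial 95% intervals are given beside them and cover counting error only, and no difference between conditions could be examined.

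AT1G15405 lies on the minus strand of chromosome 1 from 5297875 to 5298166 on TAIR10.1, whose nuclear sequence is that of TAIR10, and has 1 exon of 292 bases without an intron. It is contained in AT1G05163, a long non-coding RNA on the same strand from 5297847 to 5298571 that is annotated as a natural antisense transcript of AT1G15410. All 33 circRNAs lay inside AT1G05163. The neighbouring protein-coding genes AT1G15400 (5295756 to 5297075, minus strand) and AT1G15410 (5298324 to 5300927, plus strand) overlapped 0 circRNAs of the list of all samples.

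The sequence of the locus is shown because all of the ends described here can be read from it. It is the plus strand of chr1:5297881-5298180, 5′ to 3′, which is the strand opposite to the gene. Capitals mark the AG before each start and the GT after each end of the 29 circRNAs listed on that strand.
AT1G15405 locus: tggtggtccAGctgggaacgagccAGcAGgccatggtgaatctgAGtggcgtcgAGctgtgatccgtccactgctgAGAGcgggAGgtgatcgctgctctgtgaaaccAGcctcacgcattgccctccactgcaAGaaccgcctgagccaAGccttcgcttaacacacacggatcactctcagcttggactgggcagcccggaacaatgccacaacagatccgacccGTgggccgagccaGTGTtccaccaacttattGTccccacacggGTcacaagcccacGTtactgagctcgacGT
The starts lie in the left part of the sequence and the ends in its right part, with 73 bases between the highest start and the lowest end.

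The strand of most circRNAs was not that of the gene. Of the 33 circRNAs, 29 were listed on the opposite (plus) strand and 4 on the strand of AT1G15405, so that the opposite strand held 87.9% of them (exact binomial 95% interval 71.8% to 96.6%). It held 572 of their 615 back-spliced reads, or 93.0% (90.7% to 94.9%). Among the other circRNAs of the mixed sample whose gene has a known strand, 183 of 883 (20.7%) were listed opposite to their gene. The circRNAs of AT1G15405 share ends and are not independent of each other, so these shares were not tested against each other.

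find_circ, the program that called the circRNAs, keeps junctions flanked by AG and GT and takes the strand from them, so the listed strand is fixed by the caller and is no separate observation. On the reference the listed strand read AG before the start and GT after the end for 33 of 33 circRNAs of AT1G15405, for 1136 of 1136 other circRNAs of the mixed sample that could be placed on the reference, and for 5768 of 5768 in the list of all samples. AG and GT were searched as dinucleotides on both strands of the same sequence, and matches may overlap. Over the 300 bases shown above, the plus strand had 20 AG and 16 GT, and the minus strand, where the signal reads AC before the lower end and CT after the upper end, had 24 AC and 21 CT. Within the ranges of the ends in use, which the 29 circRNAs of the plus strand themselves set, the order was the other way. The plus strand had 13 AG in the range of all starts and 7 GT in the range of all ends, which allow 91 combinations. On the minus strand there were 6 AC and 3 CT in these ranges, which allow 18. The share that such signals had in the listed strands was not tested.

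The back-spliced reads of AT1G15405 were unevenly spread over its circRNAs. Together they had 615 reads, or 6.84% of the 8987 in the mixed library (6.33% to 7.38%), while they were 2.71% of its circRNAs. Ath_circ_FC4760 had 112 reads (Poisson 95% interval 92.2 to 135), Ath_circ_FC4761 had 109 (89.5 to 131) and Ath_circ_FC0013 had 100 (81.4 to 122). Their intervals overlap, and they ranked 5, 6 and 8 by reads among all circRNAs of the mixed sample. These 3 circRNAs held 321 reads (52.2%), and the remaining 30 held 294. Next came Ath_circ_FC4789 with 27 reads (17.8 to 39.3), followed by Ath_circ_FC0008 and Ath_circ_FC4795 with 23 each (14.6 to 34.5). The intervals of these 3 overlap each other but not those of the leading 3.

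Of the others, Ath_circ_FC4799 had 21 reads, Ath_circ_FC4804 had 19, Ath_circ_FC4814 had 16 and Ath_circ_FC4821 had 15. In all, 12 circRNAs had 10 to 27 reads and 18 had 2 to 9, and the lowest count was 2. The median was 8 reads for AT1G15405 (range 2 to 112) and 4 for the 1184 other circRNAs of the mixed sample, which reached 413. Only the minimum of 2 reads was seen for 3 circRNAs of AT1G15405 (9.09%) and for 330 others (27.9%), and at least 10 reads for 15 (45.5%) and 161 others (13.6%).

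**Figure D1:**
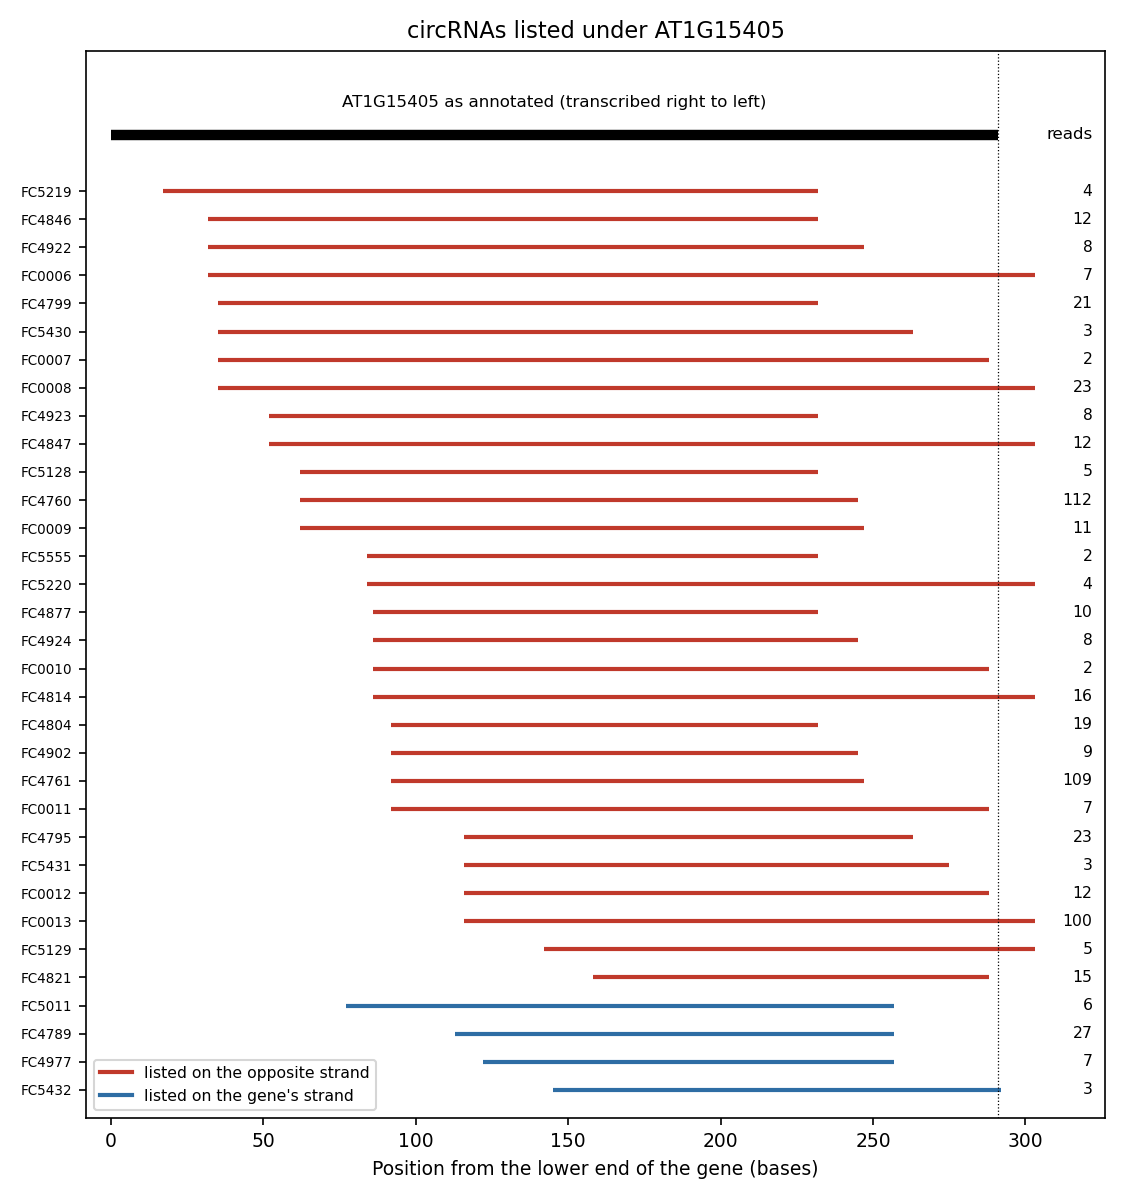
Map of the 33 circRNAs listed under AT1G15405. Each line is 1 circRNA, the x axis gives bases from the lower end of the gene, the black bar is the annotated gene, the dotted line its upper end, and the numbers at the right are back-spliced reads in the mixed library. The 29 circRNAs on the opposite strand (red) and the 4 on the gene's strand (blue) all span the same central stretch, and 8 run past the upper end of the gene.

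The sequences across the back-spliced junctions of the leading circRNAs are shown because they identify each circRNA in reads. Each run holds the 30 bases before the junction in lower case and the 30 bases after it in capitals, 5′ to 3′ on the listed strand. On the plus strand these are the 3 with the most reads, then Ath_circ_FC0006, the longest, Ath_circ_FC4821, the shortest, and Ath_circ_FC5219, which has the lowest start. Ath_circ_FC4789 has the most reads and Ath_circ_FC5432 the highest end among those on the strand of the gene.
Ath_circ_FC4760: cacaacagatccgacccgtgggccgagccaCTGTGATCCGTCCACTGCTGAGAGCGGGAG
Ath_circ_FC4761: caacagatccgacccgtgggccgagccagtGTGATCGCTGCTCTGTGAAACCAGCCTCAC
Ath_circ_FC0013: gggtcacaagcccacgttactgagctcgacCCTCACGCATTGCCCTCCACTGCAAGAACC
Ath_circ_FC0006: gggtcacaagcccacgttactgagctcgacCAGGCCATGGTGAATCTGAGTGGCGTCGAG
Ath_circ_FC4821: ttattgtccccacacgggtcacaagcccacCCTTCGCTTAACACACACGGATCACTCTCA
Ath_circ_FC5219: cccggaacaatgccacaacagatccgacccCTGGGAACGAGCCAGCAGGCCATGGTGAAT
Ath_circ_FC4789: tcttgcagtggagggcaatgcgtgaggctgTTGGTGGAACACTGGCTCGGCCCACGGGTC
Ath_circ_FC5432: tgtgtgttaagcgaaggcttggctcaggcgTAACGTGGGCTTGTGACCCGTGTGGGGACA
Ath_circ_FC4760 spans chr1:5297937-5298120, Ath_circ_FC4761 spans chr1:5297967-5298122 and Ath_circ_FC0013 spans chr1:5297991-5298178. With at most 3 mismatches, 0 of the 33 junction sequences of 60 bases matched a contiguous stretch of the genome.

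The 29 circRNAs of the opposite strand were combinations of a few ends. They used 11 starts (5297892 to 5298033) and 7 ends (5298107 to 5298178), and of the 77 combinations that these allow, 29 were found. Of the starts, 8 were used by at least 2 circRNAs, as were 6 of the ends. Every GT in the range of the ends was used (7 of 7), as were 11 of the 13 AG in the range of the starts. Over the whole 300 bases shown above, 11 of 20 AG and 7 of 16 GT were used.

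The reads were concentrated on 3 starts and 3 ends. The start at 5297967 had 144 reads in 4 circRNAs, that at 5297991 had 138 in 4, and that at 5297937 had 128 in 3. The other 8 starts had 4 to 49 reads each. Among the ends, 5298178 had 167 reads in 7 circRNAs, 5298120 had 129 in 3 and 5298122 had 128 in 3. The end at 5298107 was the most often combined, in 8 circRNAs, but had 81 reads, and the remaining 3 ends had 3 to 38.

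**Figure D2:**
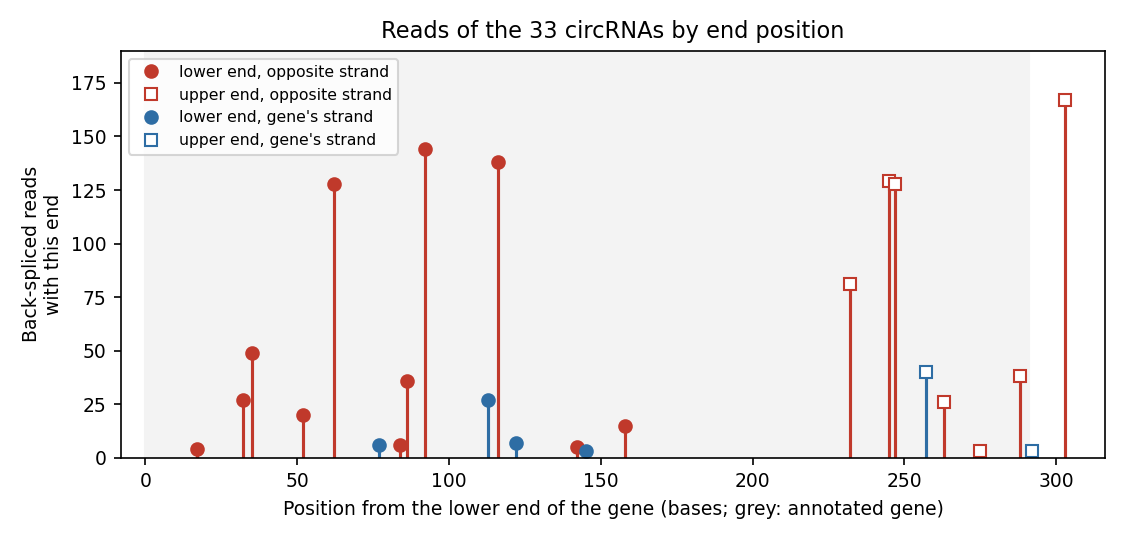
Back-spliced reads by end. The x axis gives bases from the lower end of the gene, the height gives the reads of all listed circRNAs with that end, circles are lower ends, open squares upper ends, red the opposite strand and blue the strand of the gene. Starts with over 100 reads lie at 62, 92 and 116 bases, and ends with over 100 reads at 245, 247 and 303 bases.

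Each of the 3 leading starts had most of its reads with a different end. From 5297937, 112 reads ran to 5298120 (Ath_circ_FC4760), 11 to 5298122 and 5 to 5298107. From 5297967, 109 ran to 5298122 (Ath_circ_FC4761), 19 to 5298107 (Ath_circ_FC4804), 9 to 5298120 and 7 to 5298163. The ends 5298120 and 5298122 lie 2 bases apart, so the end with most reads differed between these starts at neighbouring GT dinucleotides. From 5297991, 100 ran to 5298178 (Ath_circ_FC0013), 23 to 5298138 (Ath_circ_FC4795), 12 to 5298163 and 3 to 5298150.

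At the other starts the reads were more evenly spread over the ends. From 5297910, 23 reads ran to 5298178 (Ath_circ_FC0008), 21 to 5298107 (Ath_circ_FC4799), 3 to 5298138 and 2 to 5298163. From 5297961, 16 ran to 5298178 (Ath_circ_FC4814), 10 to 5298107, 8 to 5298120 and 2 to 5298163. From 5297907, 12 ran to 5298107, 8 to 5298122 and 7 to 5298178 (Ath_circ_FC0006). From 5297927, 12 ran to 5298178 and 8 to 5298107, and from 5297959, 4 and 2 ran to the same ends. The starts 5297892, 5298017 and 5298033 were each used by 1 circRNA, of 4, 5 and 15 reads.

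**Figure D3:**
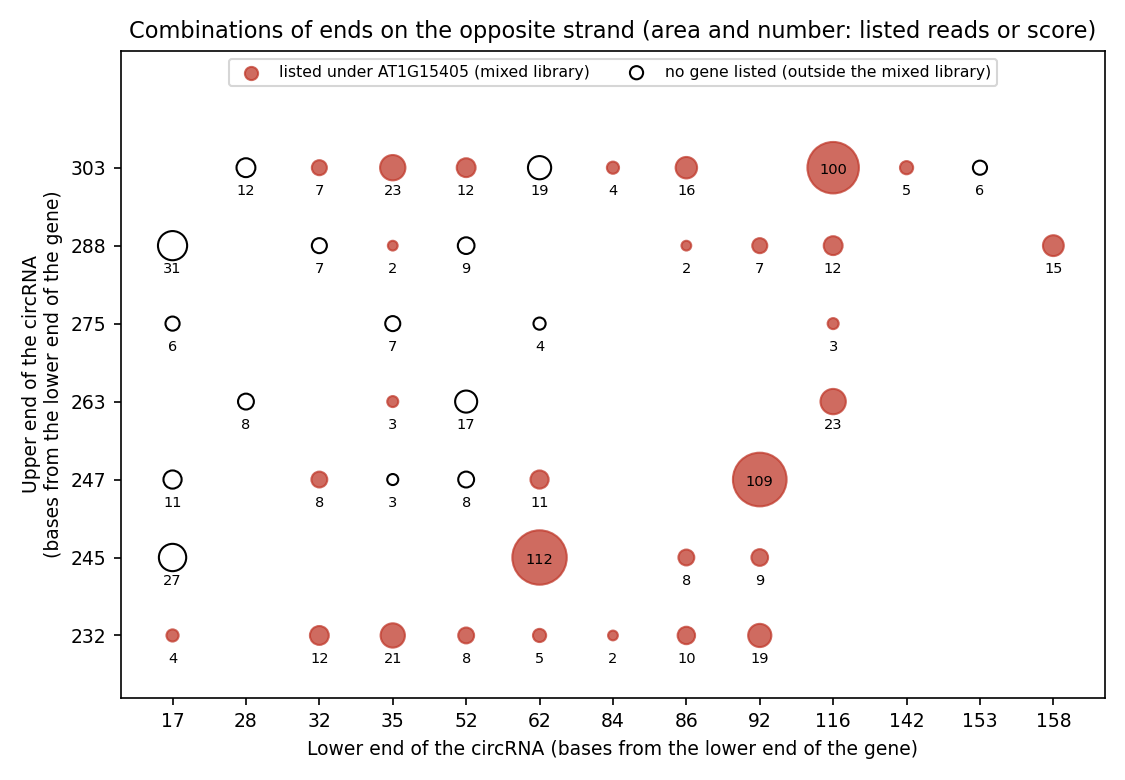
Combinations of ends on the opposite strand. Columns are lower ends and rows upper ends, in bases from the lower end of the gene and evenly spaced, filled circles are the circRNAs of AT1G15405 with their reads in the mixed library, and open circles are circRNAs of the same locus with no listed gene and their score in the list of all samples. The 3 circles with 100 reads or more lie in different rows and columns.

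The 4 circRNAs on the strand of AT1G15405 had other ends. Ath_circ_FC4789 spans 5297988 to 5298132 and had 27 reads (17.8 to 39.3), more than the other 3 together. Ath_circ_FC4977 spans 5297997 to 5298132 with 7 reads (2.81 to 14.4), Ath_circ_FC5011 spans 5297952 to 5298132 with 6 (2.20 to 13.1), and Ath_circ_FC5432 spans 5298020 to 5298167 with 3 (0.619 to 8.77). The intervals of these 3 overlap. They used 4 lower and 2 upper ends, and 3 of them shared the upper end at 5298132. The median was 9 reads for the opposite strand (range 2 to 112) and 6.5 for the strand of the gene (range 3 to 27), so the groups overlap.

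Sharing of ends was common at AT1G15405. A start or an end was shared with another circRNA of the gene by 32 of 33 (97.0%), and both by 25. The exception was Ath_circ_FC5432. Of the 1114 other circRNAs of the mixed sample with a parent gene, 178 (16.0%) shared an end with another circRNA of their gene, and 70 of 896 (7.81%) on the nuclear chromosomes. A gene with 1 circRNA cannot share an end, so these shares depend on the number of circRNAs per gene.

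The nuclear genes with the next most circRNAs in the mixed sample are therefore given beside it. AT2G21660 (GRP7), which encodes a glycine-rich RNA-binding protein of the circadian system, had 17 circRNAs with 63 reads, of which 14 shared an end. They spanned 108 to 4154 bp (median 146), and 1 of the 17 was on the strand opposite to the gene. The pseudogene AT5G55896 had 10 circRNAs with 44 reads, of which 6 shared an end and 8 were on the opposite strand. AT2G31141, annotated as protein-coding, had 9 circRNAs with 72 reads, of which 7 shared an end and 2 were on the opposite strand. The highest count of a single circRNA was 112 for AT1G15405, 22 for AT2G31141, 9 for GRP7 and 8 for AT5G55896.

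The circRNAs of AT1G15405 were short and of similar length. Their span was 181 bases in the median, with quartiles of 154 and 216 and a range of 131 to 272. The 1184 other circRNAs of the mixed sample had a median of 178 bp, quartiles of 142 and 277, and a range of 95 to 98324. Ath_circ_FC0006 was the longest (5297907 to 5298178, 7 reads) and Ath_circ_FC4821 the shortest (5298033 to 5298163, 15 reads). The medians of span were close, while the upper quartile was lower at AT1G15405, whose whole exon is 292 bases long.

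**Figure D4:**
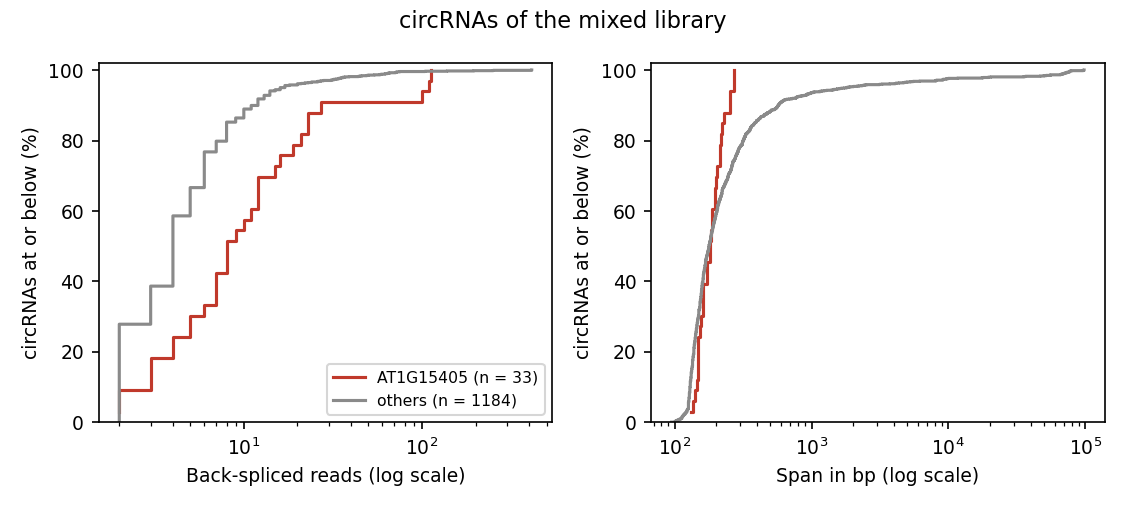
Cumulative share of the circRNAs of the mixed sample by back-spliced reads (left) and by span (right), on logarithmic x axes, for AT1G15405 (red, 33) and for the others (grey, 1184). The red curve lies to the right for reads, with medians of 8 and 4, and the medians of span are 181 and 178 bp.

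The ends did not lie on annotated exon boundaries. Neither end of any of the 33 circRNAs coincided with an end of the exon of AT1G15405. Both ends lay inside the annotated gene for 25 circRNAs, and 8 circRNAs with 170 reads ran past its upper coordinate, which is its annotated 5′ end. The 7 of these on the opposite strand ended at 5298178, 12 bases beyond the gene, and Ath_circ_FC5432 ended 1 base beyond it.

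Few junctions had repeated bases at their ends, but the ends of 14 circRNAs were not unique in the genome. Where the bases on either side of a junction are alike, the same read can be explained by positions shifted by that many bases. Such a direct repeat of at least 3 bases was present for 2 circRNAs of AT1G15405 (6.06%) and for 369 of 1136 others (32.5%), and 22 of the 33 had none at all. The longest was 3 bases for AT1G15405 and 129 for the others. Of the 33, 19 with 384 reads had their outermost 20 bases at both ends only once in the genome. The other 14 had 1 of the ends at 2 or 3 places. They included Ath_circ_FC4760, whose lowest 20 bases were found at 3 places.

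The locus held further circRNAs that the list of all samples gives without a parent gene. A set of 19, Ath_circ_FC0362 to Ath_circ_FC0380, overlapped AT1G15405 and was classed as intergenic, and 0 of them were in the mixed sample. Their score in this list summed to 202 with a median of 8 and a range of 3 to 31, beside 615, 8 and 2 to 112 for the 33. With them the locus held 52 circRNAs and a score of 817. The list heads its score as a mean of junction read counts. Sums of it over circRNAs inside and outside the mixed sample, here and below, are therefore not totals of reads. In this list, genes that are non-coding or pseudogenes were named as parent for 66 circRNAs of the mixed sample, the 33 of AT1G15405 among them. A matched gene of this kind was named for 0 of the 4644 outside it, and the 19 belong to the 4644. The parent genes of 231 circRNAs in the mixed sample and 396 outside it had no match in the annotation. Their kind is not known, and both counts leave them out.

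These 19 used mostly the same ends. Both ends were among those of the 33 for 14 of them and 1 end for the other 5. find_circ keeps only AG and GT sites, and on the opposite strand the 33 already used 11 of 13 AG and 7 of 7 GT in the ranges. Few other ends were therefore open to the 19 there. Of the 19, 15 were on the opposite strand, with a score of 175, and 4 on the strand of the gene, with a score of 27. The 19 added the starts 5297903 and 5298028 and, on the strand of the gene, the upper end 5298172. All 13 AG in the range of the starts were then in use, and 44 of 91 combinations on the opposite strand and 8 of 12 on the strand of the gene had been found. All 19 had AG and GT at their ends on the listed strand. Their span was 229 bases in the median (151 to 276), beside 181 (131 to 272) for the 33, and 12 lay inside the gene.

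Ath_circ_FC0365 had the highest score among them. It spans 5297892 to 5298163 and had a score of 31, and Ath_circ_FC0362 spans 5297892 to 5298120 with 27. Both begin at 5297892, the lowest start, from which the mixed library had 4 reads in 1 circRNA and the 19 a score of 75 in 4. Ath_circ_FC0375 (5297937 to 5298178) had 19 and Ath_circ_FC0372 (5297927 to 5298138) had 17. These 4 were chosen after their values were seen. The separate samples were sequenced on another Illumina instrument with longer reads than the mixed sample, and their depth is not in the lists, so the scores were not compared further.

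The numbering of the circRNAs also follows the lists. Numbers FC0001 to FC0112 and FC4757 to FC5861 were all in the mixed sample, and the numbers between them were all outside it. The circRNAs of AT1G15405 had 8 numbers in the lower block (Ath_circ_FC0006 to Ath_circ_FC0013) and 25 in the upper.

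The list deposited for the mixed sample also names miRNAs for its circRNAs. The file does not say with which threshold they were predicted, so the counts below are those of a listing and not of sites. The paper's own prediction gave putative miRNA sites for only a small proportion of all its circRNAs. The listing used here is therefore much broader than that prediction. miRNAs guide Argonaute proteins to complementary RNA, and a circRNA with such a site could bind them. All 33 circRNAs of AT1G15405 had at least 1 listed miRNA, against 823 of the 1184 others (69.5%). There were 15 with 5 miRNAs, 15 with 4, 1 with 3 and 2 with 1. Since the circRNAs overlap each other, these are not 33 separate sites.

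The listed miRNAs were 5 in number and are shown 5′ to 3′ with the seed, bases 2 to 8, in capitals. They were read from the reference at the RefSeq positions of the mature miRNAs.
ath-miR168a-5p: uCGCUUGGugcaggucgggaa
ath-miR168b-5p: uCGCUUGGugcaggucgggaa
ath-miR5660: cAGGUGGUuagugcaauggaa
ath-miR8165: aAUGGAGGcaagugugaagga
ath-miR5665: uUGGUGGAcaagaucugggau
miR168a-5p and miR168b-5p, which target the mRNA of ARGONAUTE1, have the same mature sequence and hence the same seed, and the other 3 have seeds of their own. Both were listed for 31 of the 33 circRNAs and for 71 of the 1217 in the mixed sample. miR5660 was listed for 30 (62 in the mixed sample), miR8165 for 29 (61) and miR5665 for 19 (60).

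The listing followed the interval, not the strand. miR168a-5p was listed for 28 circRNAs of the opposite strand and 3 of the strand of the gene, miR5660 for 27 and 3, miR8165 for 27 and 2, and miR5665 for 15 and 4. miR5665 was listed for circRNAs whose end was 5298132 or higher and for none whose end was 5298122 or lower. On the plus strand, the best ungapped pairing of miR5660 within the stretch that its circRNAs share was at 5298005 to 5298025, where 17 of 21 bases paired, 16 of them as Watson-Crick pairs. That of miR8165 was at 5297991 to 5298011, with 15 of 21 bases paired, 12 of them Watson-Crick. For miR168 and miR5665 the best ungapped pairing had 14 and 13 paired bases, 9 of them Watson-Crick in each case, and lay on the strand of the gene (5298019 to 5298039 and 5298105 to 5298125). Most of the circRNAs that list miR168 or miR5665 are on the opposite strand, 28 of 31 and 15 of 19. Best here means the most paired bases, G-U pairs included, with no weight on the seed. By the seed alone the plus strand pairs too. It reads tccaccaa at 5298125 to 5298132, which pairs with the whole seed of miR5665. Within 5298019 to 5298039 it reads ccaagc, which pairs with part of the seed of miR168. The strand of the best pairing therefore does not settle which strand the listing used. These pairings are descriptions of the letters, and binding was not measured.

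The stretch occurs in similar form elsewhere in the genome. The 300 bases shown above were searched against the nuclear and chloroplast sequences with blastn, a search chosen after the data were seen, and 10 other stretches aligned with 75.1% to 92.8% identity. The closest was chr5:14295045-14295335 on the plus strand, which overlaps AT5G36275 and has 92.8% identity over 291 columns. It is shown for comparison, with the AG and GT that it shares with the used sites in capitals.
Chromosome 5 stretch: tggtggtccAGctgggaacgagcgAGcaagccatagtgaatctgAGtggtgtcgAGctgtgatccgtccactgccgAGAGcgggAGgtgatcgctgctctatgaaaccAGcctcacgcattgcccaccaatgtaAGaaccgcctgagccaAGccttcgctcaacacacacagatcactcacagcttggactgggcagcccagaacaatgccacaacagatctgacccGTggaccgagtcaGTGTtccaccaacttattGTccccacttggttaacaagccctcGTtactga
It kept the AG of 10 of the 11 starts and the GT of 5 of the 7 ends of the opposite strand, and 0 circRNAs were listed there. The alignment stops at 5298171 of the locus, so the GT after the end 5298178 was not compared. All 8 other places in the genome that matched the outermost 20 bases of the 14 circRNAs above lay in aligned stretches, and 5 of them in this one.

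The other aligned stretches differed in their number of circRNAs. The stretch in AT2G31141, at 82.1% identity over 302 columns, had 12 circRNAs of 132 to 275 bp with a score of 99. It kept the AG of 6 starts and the GT of 4 ends, where 16 starts and ends of the opposite strand could be aligned. One on chromosome 2 that overlaps AT2G41310 (RR3), a response regulator of cytokinin signalling, and the long non-coding RNA AT2G09250, at 75.1% over 233 columns, had 22 circRNAs of 113 to 294 bp with a score of 283, all without a listed gene. AT4G04595, at 84.2%, had 3 circRNAs, and AT4G04565, at 83.2%, had 0. AT4G02970 (AT7SL-1), annotated as an RNA of the signal recognition particle, which directs secreted proteins to the endoplasmic reticulum, had 81.0% identity over 305 columns and 0 circRNAs. As annotated and aligned, the transcript of AT7SL-1 reads like the plus strand of the AT1G15405 locus, the strand opposite to the gene. The transcripts of AT5G36275, AT2G31141, AT4G04595 and AT4G04565 read like its minus strand.

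In all, 5 of the 10 stretches had 42 circRNAs, 29 of them in the mixed sample, with a score of 760. Of these, 39 were shorter than 1000 bp (113 to 294). The other 3 spanned 9664 bp between the stretches in AT5G09700 and AT5G09730 (BXL3) and had a score of 342. They count once in the 42 but overlap both stretches. Of the 75 of their ends that could be aligned with the locus of AT1G15405, 49 fell on a position that is also an end there, on either strand. find_circ keeps only junctions at AG and GT, and most such sites in the ranges of the locus were in use. The count therefore depends on how alike the sequences are, has no background beside it and was not tested. The strand differed between stretches. In the orientation of the plus strand of the AT1G15405 locus lay 44 of the 52 circRNAs there, 14 of 22 at the chromosome 2 stretch of RR3 and AT2G09250, 3 of 3 at AT4G04595, 3 of 12 at AT2G31141, 0 of 5 at AT5G09730 and 0 of 3 at AT5G09700. Reads from similar stretches can be placed at the wrong copy, and its part in these counts was not tested.

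**Figure D5:**
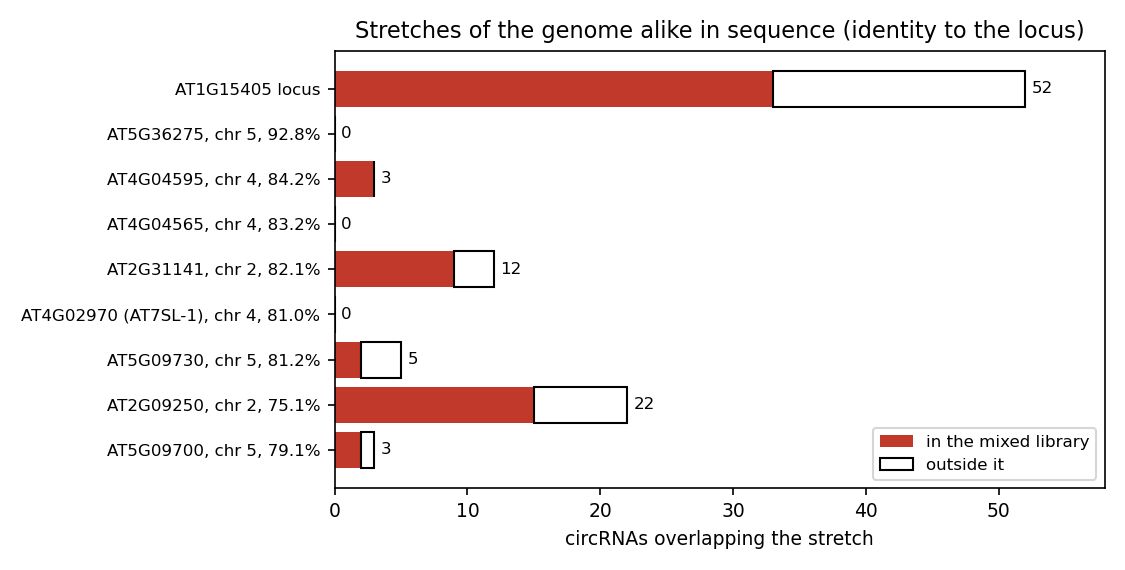
circRNAs at the AT1G15405 locus and at the aligned stretches of at least 200 columns, ordered from the best alignment downwards, with the identity to the locus beside each name. Bars give the number of circRNAs overlapping each stretch, filled for the mixed sample and open for those outside it, and the numbers range from 0 to 22 beside 52 at the locus.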

How the data were processed

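RNA of 14 *A. thaliana* samples, with 1 library for each condition, was sequenced after removal of ribosomal and linear RNA. The submitters' processing notes name CASAVA 1.8, TopHat2 and bedtools. Per the methods, the authors removed poor reads with the NGS QC Toolkit, used TopHat2 for alignment to TAIR10, predicted back-spliced junctions with find_circ at 2 or more reads and assigned genes by overlap with bedtools. They deposited the count of back-spliced reads for the mixed sample, without normalization, together with a depth-scaled form used in an alternative only. For all samples they deposited 1 score per circRNA, headed as a mean of junction read counts. It is a whole number and equalled the count of the mixed sample for all 33 circRNAs. The total depth of each library is not in these lists.

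The start counts from 0, and 1 was added. Flanks, repeats, junctions of 60 bases and miRNA sequences were read from TAIR10.1 (RefSeq). The mitochondrial sequence differs and was not used. Similar stretches were found with blastn 2.17.0 (word size 11, E value 0.001). Python 3.11.15, pandas 2.3.3, scipy 1.17.1 and matplotlib 3.10.9 were used. Only the calculations of flanks, direct repeats and shared ends were tested on simulated data. Values are described with exact 95% intervals and no test. Named were AT1G15405 and its neighbours, the 5 circRNAs with the most reads (6 with a tie), those on its strand, the longest, the shortest and the outermost, and the next 3 nuclear genes by number. Others named with their reads were chosen after their values were seen. The gene and these rules were chosen with earlier results of these data known. Alternatives were read minima, merged ends, other repeat lengths and other comparison circRNAs.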

Additional observations from a re-analysis of the deposited data

How the results depend on the processing

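Of 39 alternative values, 4 moved the description. The 35 others include values that could not move (the share scaled to depth within the library, the score, which equals the count, and the flanking AG and GT, which find_circ sets), so their number is no measure of stability. Counting every circRNA that overlaps the annotated gene gave 52 in place of 33. A direct repeat of at least 2 bases was present for 4 circRNAs and one of at least 5 bases for 0, in place of 2 with at least 3 bases. The share of other circRNAs that shared an end was 7.81% on the nuclear chromosomes in place of 16.0%. Counts of 2 or 3 reads have intervals that reach from under 1 to over 7 reads, and the lists hold nothing below 2 reads, so a combination of ends that was not listed had 0 or 1 read or was not called, and is not shown to be absent. No paired analysis was possible because each condition had 1 library and no result came from a test.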

Other observations

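The primer sequences given with the study were placed on the reference by exact match, and 2 sets that the study lists as divergent fell on this locus. The paper states that its listed divergent primers served for qRT-PCR, by which it followed selected circRNAs over growth stages. Those measurements are not part of the lists used here. The set named for Ath_circ_FC4760 had 1 genome match for each primer.
Ath_circ_FC4760 forward: agtggcgtcgagctgtgat
Ath_circ_FC4760 reverse: caataagttggtggaacactggct
The forward primer matched the plus strand of chromosome 1 from 5297925 to 5297943 and the reverse primer the minus strand from 5298116 to 5298139, so that on the reference they face each other over 215 bases. The forward primer begins 12 bases before the start of Ath_circ_FC4760, and the reverse primer reaches 19 bases past its end. Neither primer thus lies wholly inside this circRNA. As matched, the set also lacks the out-facing layout that the paper describes for divergent primers. Both primers lay inside 8 circRNAs of the locus, 3 of them listed under AT1G15405.

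The set named for Ath_circ_FC4716 also matched here.
Ath_circ_FC4716 forward: gatccgtccactgctgagag
Ath_circ_FC4716 reverse: acgtcgagctcagtaacgtg
Each primer had 1 genome match, at 5297941 to 5297960 on the plus strand and at 5298161 to 5298180 on the minus strand of chromosome 1, facing each other over 240 bases. Ath_circ_FC4716 itself is listed on chloroplast DNA from 65954 to 66139 with a score of 3. Both primers lay inside 0 circRNAs of the AT1G15405 locus.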
